A study of Mus musculus with 6 samples.

Results

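The genes described here are 10 enzymes that make NAD or draw on NAD and its precursor nicotinamide. They were chosen by name (*Nampt*, *Nmrk1*, *Naprt*, *Nadsyn1*, *Nmnat1*, *Nnmt*, *Sirt1*, *Sirt3*, *Parp1* and *Nadk*), each read from the array row that carries its symbol alone, and all 10 were found among 13725 named genes. Primary hepatocytes from 3 wildtype C57BL/6 mice (C57BL/6N in the methods), given as 8 to 12 weeks old and as male in the methods, were plated on collagen and cultured in serum-free Williams E medium. The cells of each mouse were kept under normoxia (19.5% O2) or under hypoxia (1% O2), which gave 3 normoxic and 3 hypoxic arrays, 1 of each per mouse. The labels state 72 h of exposure, whereas the methods of the study state a shorter one, and which is right is not known here. The platform was the Affymetrix Mouse Gene 2.0 ST array, and all levels below are RMA values on the log2 scale, where a difference of 1 is a doubling.

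NAD carries electrons in energy metabolism and is also cut up as a substrate, so that cells have to make it all the time. The liver can build it from tryptophan through the kynurenine pathway, from nicotinic acid through NAPRT and the NAD synthetase NADSYN1, from nicotinamide riboside through the kinase NMRK1, and from nicotinamide through NAMPT, the rate-limiting enzyme of salvage. These routes meet at the NMNAT enzymes, which attach the adenylate part. Sirtuins and PARP1 split NAD and release nicotinamide, NNMT methylates nicotinamide and so withdraws it from salvage, and NADK phosphorylates NAD to NADP.

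The arrays carried most of the measured hepatocyte markers at high levels in both conditions. Albumin (*Alb*) lay at percentiles from 99.99 to 100 of the rows of its arrays. The exception was *Asgr1*, with a normoxic mean of 6.21 and percentile 2.43 on its lowest array. *Ndrg1*, the hypoxia marker used by the study, was at 8.40, 8.98 and 8.66 under normoxia and at 10.71, 10.63 and 10.41 under hypoxia in mouse 1, 2 and 3. Of 8 measured hepatocyte markers, 3 were higher under hypoxia (*Asgr1* with a log2 difference of 2.40, *Serpina1e* with 2.10 and *Apoa1* with 0.72), 2 were lower (*Hnf4a* with -1.03 and *Fgb* with -0.94), and *Alb*, *Ttr* and *Cps1* did not pass. Of 7 measured markers of sinusoidal endothelial cells, 6 were higher under hypoxia and none was lower, and their summed level on the linear scale was 1087 to 1290 in the normoxic arrays and 1917 to 2097 in the hypoxic arrays. Of 6 measured Kupffer cell and macrophage markers, 2 were higher (*Cd68* and *Marco*) and 1 was lower (*C1qa*). They summed to 1238 to 1462 under normoxia and to 2401 to 2428 under hypoxia. Most of that rise lay in *Cd68*, with means of 9.40 and 10.75. The Kupffer cell lectin gene *Clec4f* stayed between the percentiles 7.45 and 13.3 of its arrays. Cholangiocyte markers (1 of 5 higher and 2 lower) summed to 2762 to 4160 under normoxia and to 1222 to 1630 under hypoxia. That sum was set mostly by *Spp1*, with means of 11.13 and 8.32. The median log2 difference of these markers was 0.34, and 3 of the 5 had a positive sign. Of 8 stellate cell markers 1 was higher and 1 lower, and 1 of 3 lymphocyte markers was higher. The part of these other cells in the results below was not tested. In such bulk RNA fewer cells of a type and less RNA per cell cannot be told apart.

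Among the 10 genes, 1 was higher and 4 were lower under hypoxia at an adjusted p under 0.05, and 5 did not pass the test. The test was limma fitted to all 15443 rows, adjusted by Benjamini-Hochberg, and it called 13.9 percent of all named genes higher and 25 percent lower. Among so few genes neither count stands clear of that background. The hypoxic values lay all above the normoxic ones for 2 of the 10 genes (*Nampt* and, by 0.0050, *Nadk*) and all below them for 4, against 20.7 percent and 33.3 percent of all named genes. *Nampt* was the gene that rose, and *Nmrk1*, *Naprt*, *Nmnat1* and *Sirt3* fell. With the mouse as a block and trend and robust variance estimation, 4 genes were again lower, with *Nnmt* in the place of *Sirt3*.

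**Figure D1:**
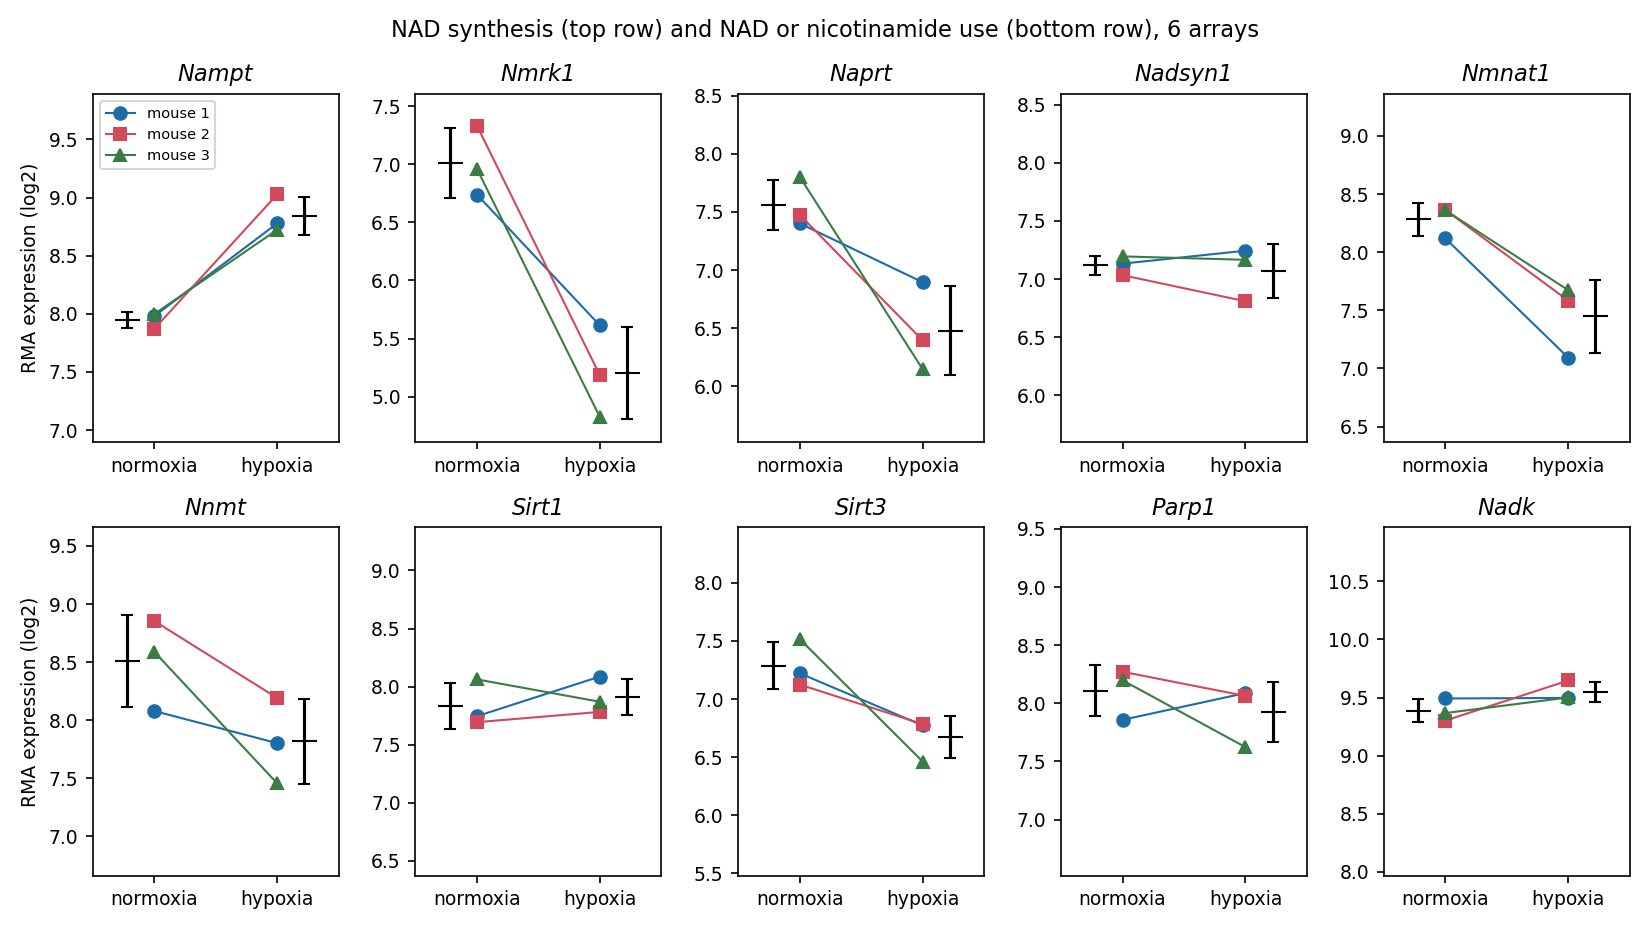
RMA expression (log2) of the 10 genes on each of the 6 arrays, with a line joining the normoxic and the hypoxic array of each mouse and bars for the mean ± SD of each condition (n = 3). Each panel spans 3 log2 units around its own mean, so that slopes can be compared and levels cannot. The lines of *Nampt* all rise, and so do those of *Nadk*, by 0.0050, 0.35 and 0.13 in mouse 1, 2 and 3. Those of *Nmrk1*, *Naprt*, *Nmnat1*, *Nnmt* and *Sirt3* all fall, and those of *Nadsyn1*, *Sirt1* and *Parp1* run both ways.

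*Nampt*, whose product turns nicotinamide into nicotinamide mononucleotide, was the one synthesis gene with more transcript under hypoxia. Its normoxic level was 7.98, 7.87 and 8.00 in mouse 1, 2 and 3, and its hypoxic level was 8.78, 9.03 and 8.72. All hypoxic values lay above all normoxic ones, and the normoxic values were close together. Expression rose 1.86-fold (log2 difference 0.89, standard error 0.14, limma adjusted p = 0.00324). *Nampt* passed when any single array was left out but not once mouse 2 was dropped (adjusted p = 0.0535).

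*Nmrk1* had the largest change of the 10 genes. This kinase phosphorylates nicotinamide riboside to nicotinamide mononucleotide. It was at 6.74, 7.33 and 6.96 under normoxia and at 5.61, 5.18 and 4.82 under hypoxia in mouse 1, 2 and 3. The groups were separated by a gap of 1.13, and mouse 2 and mouse 3 fell further than mouse 1. Its log2 difference was -1.80 (standard error 0.24, adjusted p = 0.00206), so that normoxic expression was 3.49 times the hypoxic one, and its size exceeded those of 97.6 percent of named genes. The call held without any 1 array and without any 1 mouse (largest adjusted p = 0.0344). On the hypoxic array of mouse 3 the row lay at percentile 0.408, near the lowest signals. On that of mouse 2 its 5.18 lay below the 5.31 of *Tdo2*, which stood at percentile 1.02. The size of the fall is therefore less certain than its direction.

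*Naprt*, which encodes the first enzyme of the route from nicotinic acid, was lower in the hepatocytes of all 3 mice. Normoxic values were 7.40, 7.47 and 7.80 and hypoxic values were 6.89, 6.39 and 6.15 in mouse 1, 2 and 3. The groups did not overlap, but the falls differed widely, from 0.51 in mouse 1 to 1.66 in mouse 3. Hypoxia minus normoxia was -1.08 (standard error 0.22, adjusted p = 0.00871), or 2.12-fold lower under hypoxia. The row of *Naprt* stood at percentile 6.85 on its lowest array, so that the size of this fall is also less certain. The call was lost without mouse 2 (adjusted p = 0.0775) and without mouse 3 (0.0698).

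Of the genes for the last steps of synthesis, *Nmnat1* fell and *Nadsyn1* did not pass. *Nmnat1* encodes the nuclear adenylyltransferase that completes NAD. It was at 8.12, 8.36 and 8.36 under normoxia and at 7.09, 7.58 and 7.67 under hypoxia in mouse 1, 2 and 3. The groups did not overlap, and mouse 1 was the lowest in both conditions. Its log2 difference was -0.83 (standard error 0.19, adjusted p = 0.0125 from limma). It did not pass without the normoxic array of mouse 2 (0.0506), without mouse 2 (0.0865) or without mouse 3 (0.0592). *Nadsyn1*, which encodes the synthetase that aminates the product of the nicotinic acid route, was at 7.13, 7.03 and 7.19 under normoxia and at 7.24, 6.81 and 7.17 under hypoxia. These values overlapped, and the log2 difference of -0.047 had a 95% interval from -0.42 to 0.32 (adjusted p = 0.834). Centring each array on its brighter rows, or dropping the hypoxic array of mouse 2, turned its sign.

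Within each mouse, *Nampt* was higher under hypoxia while *Nmrk1* and *Naprt* were lower. The change of *Nampt* exceeded that of *Nmrk1* by 1.93, 3.31 and 2.86 on the log2 scale in mouse 1, 2 and 3. It exceeded that of *Naprt* by 1.31, 2.24 and 2.38. With 3 mice, these differences between changes are given as values without a test.

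The HIF transcription factors bind a short core motif in DNA, and the stretch of 250 bases before the RefSeq start site (GRCm38.p6) is shown for the gene that rose, the gene that fell most and 1 gene that did not pass. Both strands were searched for ACGTG and GCGTG, and the capitals mark each match on either strand, where a match on the other strand reads CACGT or CACGC. The *Nampt* stretch is chr12:32820085-32820334 on the plus strand, that of *Nmrk1* is chr19:18631766-18632015 on the plus strand and that of *Sirt1* is chr10:63339036-63339285 on the minus strand, each written from 5′ to 3′ of the gene.
Nampt: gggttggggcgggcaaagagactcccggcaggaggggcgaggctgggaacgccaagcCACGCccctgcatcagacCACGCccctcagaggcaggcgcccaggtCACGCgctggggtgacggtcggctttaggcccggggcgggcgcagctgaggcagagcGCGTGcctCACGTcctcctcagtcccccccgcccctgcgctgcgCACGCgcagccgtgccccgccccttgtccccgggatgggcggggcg
Nmrk1: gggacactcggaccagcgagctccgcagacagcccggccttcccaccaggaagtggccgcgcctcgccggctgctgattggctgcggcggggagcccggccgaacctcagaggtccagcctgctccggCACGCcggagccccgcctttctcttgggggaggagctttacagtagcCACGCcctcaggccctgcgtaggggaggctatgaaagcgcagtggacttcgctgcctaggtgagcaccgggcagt
Sirt1: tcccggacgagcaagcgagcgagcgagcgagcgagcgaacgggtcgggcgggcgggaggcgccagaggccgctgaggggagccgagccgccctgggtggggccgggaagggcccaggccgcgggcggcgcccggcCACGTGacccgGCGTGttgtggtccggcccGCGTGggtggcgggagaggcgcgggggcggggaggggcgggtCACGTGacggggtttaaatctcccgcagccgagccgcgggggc

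*Nampt* held 6 matches, which began 193, 175, 147, 90, 82 and 46 bases before the start, 1 of them ACGTG and the others GCGTG. *Nmrk1* held 2 matches of GCGTG, 122 and 75 bases before the start. *Sirt1* held 6, of which 4 were ACGTG and came from 2 copies of the palindrome CACGTG, each counted on both strands. RefSeq windows of 300 bases (250 before and 50 after the start) were found for 8 of the 10 genes, and as some genes had more than 1 start these made 11 windows, of which 5 held ACGTG or GCGTG, each in a different gene. Of all 32851 windows in that table, 43.8 percent held either motif, a share close to 5 of 11, 19.6 percent held ACGTG, 32.4 percent held GCGTG and 7.15 percent held CACGTG. The windows of *Nampt*, *Nmrk1* and *Sirt1* were 76.3, 67.3 and 79.0 percent G or C. No motif was found in the windows of *Nadsyn1*, *Nmnat1* and *Sirt3*. *Parp1* held 3 matches, the windows of *Nadk* held 0 and 6, and *Naprt* and *Nnmt* had no window. The genes that did not pass thus differed in their counts, and *Sirt1* does not stand for them. A match describes these letters only.

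Among the genes that use NAD, *Sirt3* was lower and the others did not pass. *Sirt3* encodes the main deacetylase of mitochondria. Its values were 7.22, 7.12 and 7.52 under normoxia and 6.77, 6.78 and 6.46 under hypoxia in mouse 1, 2 and 3. The groups did not overlap, and mouse 3 had both the highest and the lowest value. Expression was 1.53-fold lower under hypoxia (log2 difference -0.61, standard error 0.17, limma adjusted p = 0.0238). This call was the least stable of the 5. With the mouse as a block the adjusted p was 0.0639, and with trend and robust estimation added 0.0618. The call was also lost without any of 3 single arrays (normoxic mouse 1, normoxic mouse 3 and hypoxic mouse 3) and without each of the 3 mice in turn (largest adjusted p 0.143).

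*Sirt1*, which encodes the nuclear deacetylase of the family, was at 7.75, 7.69 and 8.06 under normoxia and at 8.09, 7.78 and 7.87 under hypoxia. The values overlapped and the mice differed in direction. The log2 difference was 0.079 with a 95% interval from -0.30 to 0.45 (adjusted p = 0.721), and its sign turned without mouse 1. *Parp1*, the DNA damage sensor that spends NAD on poly-ADP-ribose, was at 7.86, 8.27 and 8.20 under normoxia and at 8.09, 8.06 and 7.62 under hypoxia. Mouse 1 was higher and the other mice were lower, and the log2 difference of -0.18 had an interval from -0.63 to 0.26 (adjusted p = 0.465) and turned in sign without mouse 3.

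*Nnmt*, whose product methylates nicotinamide with S-adenosylmethionine, had lower values under hypoxia in each mouse but did not pass. It was at 8.08, 8.85 and 8.59 under normoxia and at 7.80, 8.19 and 7.46 under hypoxia in mouse 1, 2 and 3. The hypoxic value of mouse 2 lay above the normoxic value of mouse 1, so that the groups overlapped although every mouse moved downward. Its log2 difference was -0.69 (standard error 0.26, unadjusted p = 0.0310, adjusted p = 0.0699 from limma). With the mouse as a block the adjusted p was 0.0554, and with trend and robust variance estimation added to the block it was 0.0214. It also passed without the normoxic array of mouse 1 or the hypoxic array of mouse 2, where the lowest adjusted p was 0.0437.

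*Nadk*, the cytosolic NAD kinase, did not pass. It was at 9.49, 9.30 and 9.37 under normoxia and at 9.50, 9.65 and 9.50 under hypoxia in mouse 1, 2 and 3. The lowest hypoxic value exceeded the highest normoxic one by 0.0050. Its log2 difference was 0.16 with a 95% interval from -0.14 to 0.47 (adjusted p = 0.352 from limma), and its rows stood at percentiles 88.9 to 91.9 of the arrays.

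**Figure D2:**
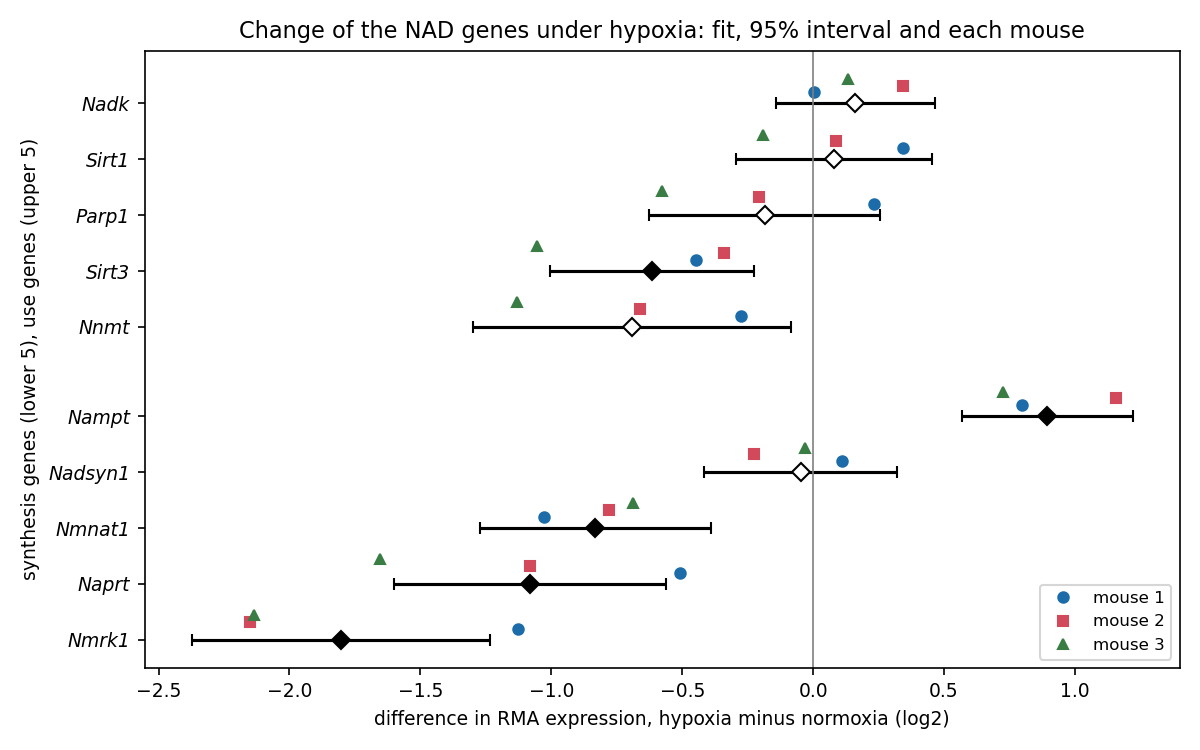
Difference in RMA expression, hypoxia minus normoxia (log2), for the 5 synthesis genes (lower part) and the 5 genes of NAD or nicotinamide use (upper part). Diamonds and bars are the limma estimate with its 95% interval, filled where the adjusted p was under 0.05, and coloured symbols are the single mice. The synthesis genes span -1.80 to 0.89 and the others -0.69 to 0.16.

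Set side by side, the 5 synthesis genes had 1 higher and 3 lower calls, and the 5 genes of use had none higher and 1 lower. Over all named genes 13.9 percent were called higher and 25 percent lower, and counts among 5 genes do not stand clear of these shares. Median log2 differences were -0.83 for synthesis and -0.18 for use, against -0.08 over all named genes. In the single mice the synthesis median was -0.51, -0.78 and -0.69 in mouse 1, 2 and 3, and that of use was 0.0050, -0.21 and -0.58. The synthesis median was the lower of the pair in 3 of 3 mice, by 0.51, 0.57 and 0.11. Without the dimmest 25 percent of rows, among them that of *Nmrk1*, the synthesis median was -0.44. The median over all 5 combines opposite changes, since *Nampt* rose while *Nmrk1*, *Naprt* and *Nmnat1* fell. No test of this contrast was made, because the genes had been chosen with earlier results of these arrays known. The median of use turned to 0.011 without mouse 3.

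The wider pathway was read from 69 further genes in 8 lists, of which 63 were measured. Measured, here and for the cell type markers, means that a row carries the symbol alone. *Parp10*, whose row also names another gene, was left out by this rule. Of the 63 genes, 8 were higher, 23 were lower and 32 did not pass, and their median log2 difference was -0.34. Read against the background, 23 of 63 is a larger share than the 25 percent of all named genes called lower, and 8 of 63 is near the 13.9 percent called higher. The lists were written with earlier results of these arrays known, so that the larger share is a count only and was not tested.

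In the list of other synthesis, salvage and transport genes, none of 12 was higher and 3 were lower. Over all named genes 13.9 percent were higher and 25 percent lower, so that this list does not stand out. The counts of the lists that follow are to be read beside the same shares, and none was tested. *Nt5e* encodes CD73, the surface nucleotidase that can release nicotinamide riboside from its nucleotide. It fell from 9.23 ± 0.10 (SD, n = 3) to 8.11 ± 0.12 (SD, n = 3), with an adjusted p of 0.00144 from limma. *Slc25a51*, the mitochondrial NAD carrier gene, had a log2 difference of -0.68 (adjusted p = 0.00952). *Slc25a17*, the gene of a peroxisomal carrier of NAD and coenzyme A, had one of -0.53 (adjusted p = 0.0255), which stood at 0.0506 with the mouse as a block and passed in 1 of 6 fits that left out a single array. The other kinase of nicotinamide riboside, *Nmrk2*, did not pass in its row (log2 difference 0.49, adjusted p = 0.178), nor did the mitochondrial adenylyltransferase gene *Nmnat3* (-0.43, adjusted p = 0.231). These last genes were named after their values had been seen, as the paralogs of *Nmrk1* and *Nmnat1*.

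In the kynurenine route, 3 of 6 genes were lower and 1 was higher. *Tdo2*, *Kynu* and *Afmid*, which act between tryptophan and 3-hydroxyanthranilate, were the lower ones, with log2 differences from -2.84 to -1.41, and *Haao*, which makes the direct precursor of quinolinate, was the higher one with 1.01. *Acmsd*, whose product diverts that intermediate away from NAD, had a log2 difference of -0.087 (95% interval from -0.40 to 0.22, adjusted p = 0.628 from limma) and was named after its value had been seen. The row of *Haao* stood at percentile 4.15 on its lowest array, so that the size of its rise is less certain than its direction.

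The other sirtuin genes split in direction. *Sirt6*, which encodes a chromatin deacylase, was at 7.60, 7.53 and 7.62 under normoxia and at 6.30, 6.60 and 6.16 under hypoxia in mouse 1, 2 and 3. The groups lay far apart, and the log2 difference was -1.23 (standard error 0.15, adjusted p = 0.00159 from limma). *Sirt7*, the nucleolar member, had a log2 difference of -0.58 (adjusted p = 0.0309) and also passed in 1 of those 6 fits. *Sirt2*, whose product is mainly cytosolic, was at 9.57, 9.65 and 9.48 under normoxia and at 10.21, 10.23 and 10.15 under hypoxia. It rose by nearly the same amount in each mouse, and its log2 difference was 0.63 (standard error 0.12, adjusted p = 0.00765).

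Of 13 further PARP family genes, 5 were lower, 1 was higher and 7 did not pass. *Parp14*, a mono-ADP-ribosyltransferase gene, had the largest fall of the list, with a log2 difference of -1.60 (standard error 0.19, adjusted p = 0.00144 from limma). *Parp4* and *Parp9* had log2 differences of -0.75 (adjusted p = 0.00928) and -0.56 (adjusted p = 0.0138). The gene that rose was *Tiparp* (log2 difference 1.37), a mono-ADP-ribosyltransferase gene induced by the aryl hydrocarbon receptor. *Parp8*, named after its values had been seen, was higher by 0.76, 0.56 and 0.53 in mouse 1, 2 and 3. Its adjusted p was 0.0588, and it passed with the mouse as a block (0.0301), after quantile normalization again (0.0448) and after centring (0.0462), which made 2 higher PARP genes. Among 5 measured NAD hydrolase genes, *Nudt12*, which encodes a peroxisomal NADH hydrolase, fell with a log2 difference of -1.02 (adjusted p = 0.00298) and the others did not pass. Of these, *Bst1*, which encodes an ADP-ribosyl cyclase and was also named after its values had been seen, differed by -0.94, -0.46 and -0.53 in mouse 1, 2 and 3. Its adjusted p was 0.0519, and 0.0382 with the mouse as a block, which made 2 lower hydrolase genes. Of 8 genes for enzymes that remove or break down ADP-ribose, 2 were higher and none was lower. These were *Macrod2* with 0.74 (adjusted p = 0.0170) and the ADP-ribose hydrolase gene *Nudt9* with 0.56 (adjusted p = 0.0123), and both calls were lost without any 1 of the 3 mice.

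All 6 genes of nicotinamide clearance and methyl supply passed, 2 higher and 4 lower. *Gnmt*, the glycine N-methyltransferase that draws on the same methyl donor as NNMT, was at 6.09, 6.22 and 6.42 under normoxia and at 8.81, 8.60 and 8.75 under hypoxia in mouse 1, 2 and 3. Its rise was alike in the 3 mice, with a log2 difference of 2.48 (standard error 0.15, adjusted p = 0.000221 from limma). The row of *Gnmt* stood at percentile 4.23 on its lowest array, so that the size of the rise is less certain than its direction. *Ahcy*, which removes the S-adenosylhomocysteine left by methylation, had a log2 difference of 0.86 (adjusted p = 0.00368). The aldehyde oxidase genes, whose products oxidize methylated nicotinamide, fell, *Aox3* with a log2 difference of -1.44 (adjusted p = 0.00257) and *Aox1* with -0.97 (adjusted p = 0.0386). The synthetase genes for S-adenosylmethionine fell as well, *Mat2a* with -1.32 (adjusted p = 0.00129) and the hepatocyte form *Mat1a* with -0.997 (adjusted p = 0.0166). *Aox1* and *Mat1a* were named after their values had been seen. *Aox1* no longer passed in 4 of 6 fits that left out a single array, nor when mouse 2 or mouse 3 was dropped (largest adjusted p 0.206). *Mat1a* no longer passed once the normoxic array of mouse 3, or all of mouse 1 or mouse 3, was dropped (largest adjusted p 0.112).

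In the list of NADP supply and reduction, 5 of 9 genes were lower and 1 was higher. *Nadk2*, the mitochondrial NAD kinase gene, was at 8.35, 8.48 and 8.51 under normoxia and at 7.42, 7.03 and 6.74 under hypoxia in mouse 1, 2 and 3. The groups were clearly apart, with a log2 difference of -1.38 (standard error 0.19, adjusted p = 0.00225 from limma), whereas the interval of the cytosolic *Nadk* ran from -0.14 to 0.47. *H6pd*, which makes NADPH in the endoplasmic reticulum, fell with a log2 difference of -1.55 (adjusted p = 0.000926), and the mitochondrial isocitrate dehydrogenase gene *Idh2* fell with -0.80 (adjusted p = 0.00513). *Tkt*, the transketolase of the pentose phosphate pathway, rose with 0.65 (adjusted p = 0.0146), a call that was lost without any 1 of the 3 mice. Without mouse 2, 12 of the 25 genes named from these lists lost their calls, among them *Haao*, *Sirt2*, *Sirt7*, *Slc25a51*, *Slc25a17*, *Parp4*, *Parp9*, *Ahcy*, *Idh2* and those already given, and without mouse 3 10 of them did.

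**Figure D3:**
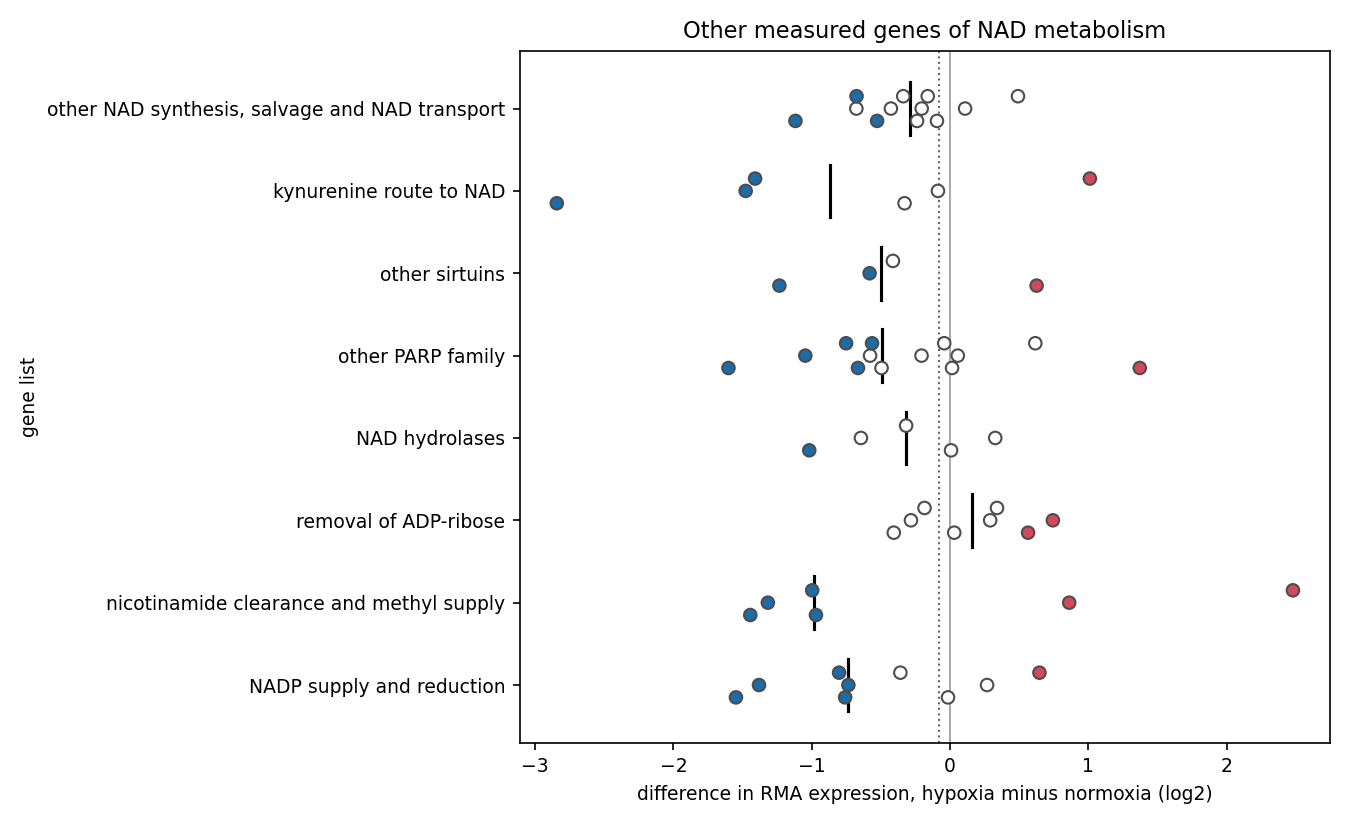
Difference in RMA expression, hypoxia minus normoxia (log2), of the 63 measured genes in the 8 further lists. Each circle is 1 gene, red where higher and blue where lower at an adjusted p under 0.05 and white where it did not pass, black bars are list medians and the dotted line is the median of all named genes (-0.08). The list of ADP-ribose removal has the one median above 0 (0.16).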

How the data were processed

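RNA of primary hepatocytes from 3 mice, each under normoxia and hypoxia, was measured on 6 arrays. The authors deposited log2 RMA values (oligo, version and genome build not given in the sources used here), which correct the background, quantile-normalize arrays and summarize probes. The deposited table holds 15443 rows without detection calls. Array medians were 7.42 to 7.49, and arrays give no read depth. Precision is limited by the number of arrays, the spread between mice and the low signal of dim rows. Per the platform annotation 13906 rows carry 1 symbol, 415 several and 1122 none, and 1294 symbols were updated through RefSeq (GRCm38.p6). The row with the highest mean stood for a gene. The genes and lists were chosen with earlier results of these data known. Named are all 10 genes, *Ndrg1*, markers of cell types, up to 4 called genes per list with the smallest adjusted p, and exceptions marked as such.

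Expression was compared over all rows with limma 3.58.1 (R 4.3.3, lmFit and eBayes, condition alone). The methods name limma with eBayes and do not state the design matrix. The adjusted p that the study printed for *Tiparp*, 0.00189, was also that of limma with the mouse as a block, trend and robust eBayes. Condition alone gave 0.00121. The study may thus have used that design, under which *Nnmt* passed and *Sirt3* did not. The same mouse stands in both conditions, and the mouse was added as a block in a further fit. Deviations of paired arrays correlated at -0.11, 0.02 and 0.10. An exact permutation test of 3 against 3 arrays reaches 0.1 at the lowest (two-sided) and is not given. The scripts were tested on simulated data. Alternatives were the block (also with trend and robust eBayes), leaving out the lowest 25 percent of rows, quantile normalization again, centring on brighter rows, averaging all rows that name a gene, a threshold of 0.01, and dropping single arrays or single mice. Promoter sequences are from RefSeq.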

Additional observations from a re-analysis of the deposited data

How the results depend on the processing

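After quantile normalization again and after centring, the 4 falls and 1 rise among the 10 genes kept their direction. The other alternatives could not turn these signs. Hypoxic and normoxic values of these genes did not overlap, each gene has a single row, and the block, the filter and the threshold leave the difference as it is. Counts of called rows were 2400 higher and 3698 lower, and ranged from 852 to 3114 and from 1306 to 4131 when an array or a mouse was left out. In the same settings the 10 genes gave 0 to 1 higher and 1 to 5 lower calls, the synthesis genes 0 to 1 higher and 1 to 3 lower, the genes of use 0 to 2 lower, and the 63 further genes 2 to 12 higher and 12 to 28 lower. The synthesis median then ran from -0.91 to -0.65 and that of use from -0.39 to 0.011, the last of these without mouse 3. At a threshold of 0.01, 1126 rows were higher and 1944 lower, 2 of the 10 genes were lower (0 of those for use), and 5 further genes were higher and 14 lower. With the mouse as a block, 3 of the 10 genes were called lower, 0 genes of use were called lower, 24 of the 25 genes named from the lists by rule kept their call, *Bst1* and *Parp8* passed in addition, and with trend and robust eBayes added the gene of use that passed was *Nnmt* and not *Sirt3*. Without the dimmest 25 percent of rows *Nmrk1* and *Haao* were not tested, and the synthesis median became -0.44 because *Nmrk1* was missing. Signs turned for genes that did not pass, namely *Nadsyn1* (0.013 after centring, and -0.13 to 0.085 when an array or mouse was left out, above 0 without the hypoxic array of mouse 2 or without mouse 2), *Sirt1* (-0.052 to 0.21, below 0 without mouse 1 or its hypoxic array) and *Parp1* (0.011 without mouse 3). Leaving out a mouse leaves 2 arrays a condition. Arrays hold no counts, and with no background values in the table a dim row such as hypoxic *Nmrk1* could not be set against background.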

Other observations

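The mice differed in how far these genes moved. The difference between hypoxia and normoxia was lower in mouse 3 than in mouse 1 for 8 of the 10 genes, against 57.4 percent of all named genes, and it was the lowest of the 3 mice for 6 of the 10, against 39.3 percent. The spread between mice was larger under hypoxia for 6 of the 10 genes and for 9437 of the 13725 named genes, with a median SD of 0.25 against 0.20 under normoxia, and over all named genes these medians were 0.24 and 0.16.

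*Slc12a8*, which has been described as a transporter of nicotinamide mononucleotide in the mouse gut, stood apart by its spread and was named after its values had been seen. It was at 6.68, 6.89 and 6.56 under normoxia and at 4.10, 6.21 and 7.79 under hypoxia in mouse 1, 2 and 3. The hypoxic SD was 1.85, and the log2 difference of -0.68 (adjusted p = 0.533 from limma) says little about any single mouse.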
